A study of Mus musculus with 14 samples.

Results

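Described here are 35 genes of the cell cycle and of DNA replication, read in whole lungs of mice that lacked CD151 or CD9 and of wild type mice. They were chosen by name: every probe set annotated with exactly 1 gene symbol that is among the 35 was used, a probe set being a group of array probes meant to read 1 transcript. Such probe sets were found for 34 of the 35 genes, among 18193 genes in all, and the cyclin B1 gene Ccnb1 was not analysed here. The 34 genes had 83 of the 34945 probe sets with 1 symbol. Of these genes 25 had several probe sets and 9 had 1. Where a gene had several, the brightest on average stood for it, and 31 of the 34 genes lay above the filter on low signal (a signal of 53.4) and were tested.

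The study's title concerns CD151, the lung epithelium and fibrosis. Total RNA of lungs of C57BL/6 mice at 20 weeks of age was labelled with biotin and measured on 1-colour Affymetrix arrays, 1 array per sample. The CD151KO group had 5 samples and the CD9KO group 5, and the wild type group had 4, which are numbered 1, 3, 4 and 5. Both proteins belong to the tetraspanins, membrane proteins that gather integrins and other partners into complexes. The labels do not say how the knockout alleles were made, or that samples of a group are separate animals. The p-values therefore reflect the spread among these arrays alone, part of which may be technical.

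A cell that divides first loads the MCM helicase, the motor that unwinds DNA, onto replication origins with the help of CDC6 and CDT1. D cyclins with CDK4 and CDK6, then E cyclins with CDK2, release the E2F factors that switch on the replication genes, and PCNA, ribonucleotide reductase and thymidine kinase serve the replication fork. Cyclin A2, B cyclins, CDK1, PLK1, the Aurora kinases and BUB1 act later and carry the cell through mitosis, and their genes are controlled by the DREAM, B-MYB and FOXM1 complexes. Most cells of the adult lung are at rest, so transcripts such as Mki67 and Top2a mark the few that divide. MCM proteins, PCNA, D cyclins and their kinases are also present in cells that are not dividing. In whole lung, fewer dividing cells and less RNA per dividing cell cannot be told apart.

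The targeted genes were low where the labels say. Cd151 had a signal of 1058 ± 17.7 in CD151KO lungs and 5330 ± 372 in wild type lungs (SD, n = 5 and 4), and Cd9 had 667 ± 52.3 in CD9KO lungs and 8096 ± 69.4 in wild type lungs. Array medians ran from 84.1 to 86.2. The 9 marker genes of alveolar type 2 cells with a probe set summed to 105908 to 110801 in CD151KO, 100047 to 104743 in CD9KO and 100527 to 108310 in wild type samples, so the material read as lung. CD151KO sample 1 and wild type sample 1 stood apart, with scores of -17.2 and -18.5 on principal component 1 (37.5% of the variance of the genes tested). CD151KO samples 2 to 5 scored -8.01, -4.80, 1.11 and 2.465, and wild type samples 3, 4 and 5 scored -4.965, 0.814 and 1.48. Scores thus rose with the sample number in both groups. The CD9KO samples, at 7.23 to 13.4, lay above all others. What set these scores was not tested.

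On the probe sets that stand for them, the cell cycle genes differed little between the 3 genotypes. In CD151KO against wild type lungs 1 of 31 genes passed the test (limma, Benjamini-Hochberg adjusted p under 0.05 over 12985 genes), the helicase gene Mcm5, which was lower. The share of all genes that passed was 0.778%. In CD9KO against wild type lungs Mcm5 was again the 1 gene of 31 that passed, also lower, where 5.51% of all genes passed. Between the knockouts 2 of 31 passed, with Bub1 higher and Ccnd1 lower in CD151KO than in CD9KO, beside 10.1% of all genes. For 1 of these, Ccnd1, another probe set of the gene moved the opposite way.

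The sizes were small as well. The median log2 difference of the 31 genes was -0.045 in CD151KO against wild type, where that of all genes tested was 0.0079. It was -0.050 in CD9KO against wild type (all genes 0.0037) and 0.024 in CD151KO against CD9KO (all genes 0.0016). The 95% intervals of all 31 genes lay between log2 -0.47 and 0.48 for CD151KO against wild type, between -0.48 and 0.47 for CD9KO against wild type and between -0.56 and 0.54 for CD151KO against CD9KO. These bounds hold for the probe set that stands for each gene. The difference itself of a further probe set of Ccnd1 lay beyond them in CD151KO against wild type and against CD9KO. Intervals of further probe sets are not given here. Some would reach past the bounds, such as that of Ccnd3 1438805_at in CD9KO against wild type (log2 0.37, SE 0.18). At an unadjusted p under 0.05, 5 of 31 genes passed in CD151KO against wild type, 5 in CD9KO against wild type and 9 in CD151KO against CD9KO, where all genes gave 11.1%, 25.4% and 27.6%. The comparisons share samples with each other and are not independent. All differences and folds are on the log2(signal + 16) scale, which understates changes at low signal.

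**Figure D1:**
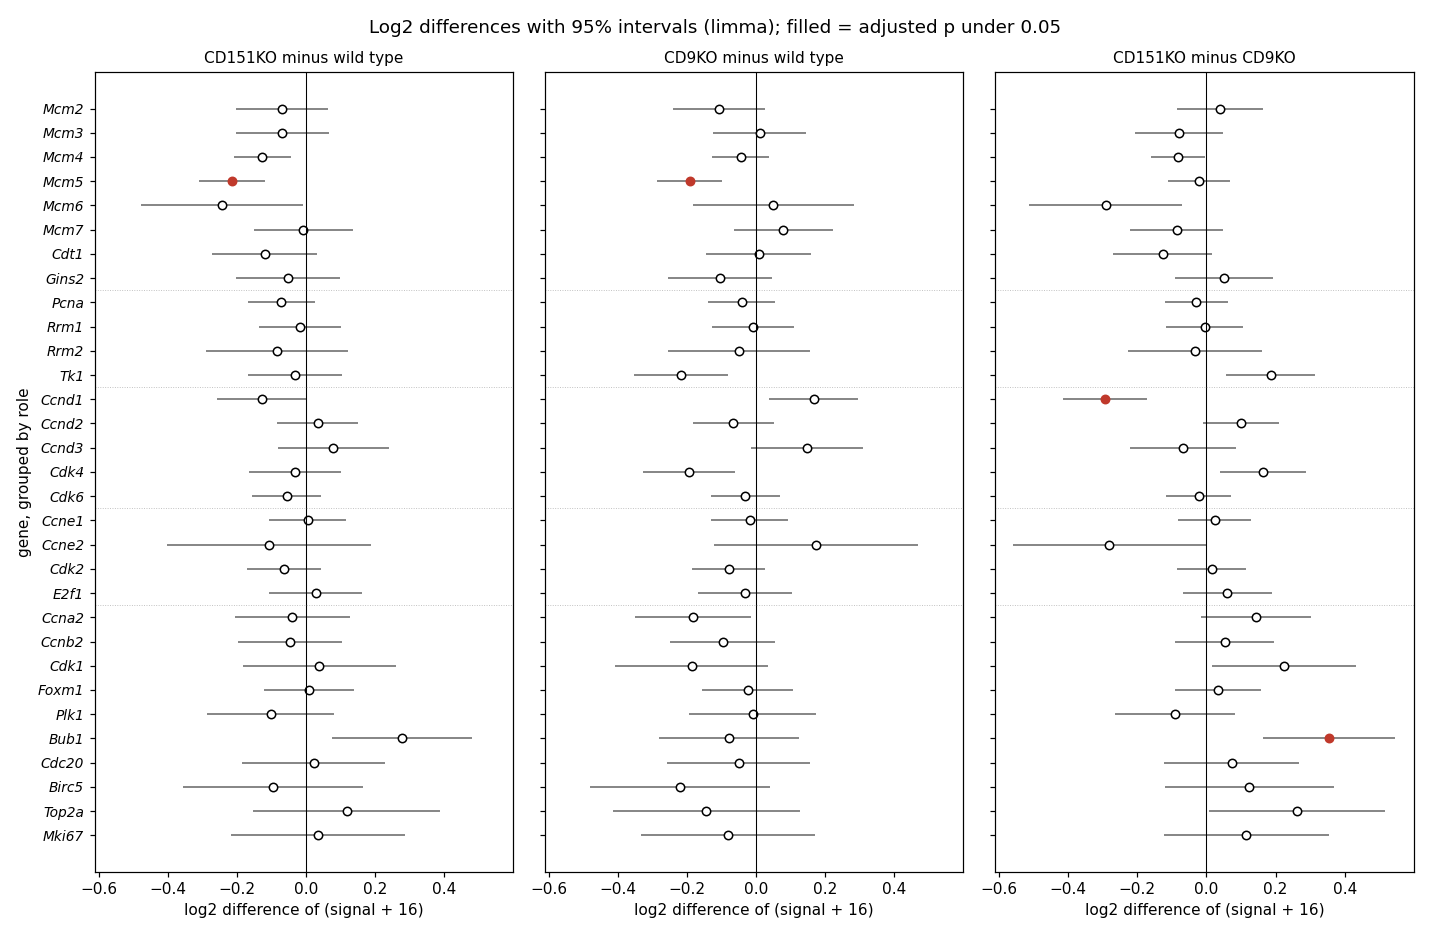
Log2 differences of the 31 genes tested, with 95% intervals from limma, in CD151KO minus wild type (left), CD9KO minus wild type (middle) and CD151KO minus CD9KO (right), grouped by role down the page. Filled points passed at an adjusted p under 0.05: Mcm5 at -0.21 and -0.19 against wild type, and Ccnd1 at -0.29 and Bub1 at 0.36 between the knockouts.

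Among the licensing genes the 8 tested were all below 0 in CD151KO against wild type, with a median log2 difference of -0.094, while in CD9KO against wild type 4 of 8 were. Of the 31 genes 21 were below 0 in CD151KO against wild type, where 46% of all genes were. MCM5 is a subunit of the helicase ring. Mcm5 read 174, 175, 178, 171 and 170.3 in CD151KO, 179.6, 176, 167, 185 and 176 in CD9KO, and 220.0, 202, 202 and 192 in wild type samples. Every sample of both knockouts lay below every wild type sample, and the knockouts overlapped each other. Mcm5 fell 1.16-fold in CD151KO (log2 -0.21, SE 0.04, limma adjusted p = 0.0301) and 1.14-fold in CD9KO (log2 -0.19, SE 0.04, limma adjusted p = 0.0249), and between the knockouts the log2 difference was -0.02 (limma adjusted p = 0.778).

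The fall of Mcm5 was near the threshold, and it rested on 1 probe set of 3. With the mean of its probe sets it passed neither in CD151KO (log2 -0.114, limma adjusted p = 0.248) nor in CD9KO (log2 -0.117, limma adjusted p = 0.0846), and with only the compared groups in the fit the limma adjusted p was 0.0959 in CD151KO and 0.0551 in CD9KO. In CD151KO it no longer passed when any 1 of the CD151KO samples 1 to 5 or of the wild type samples 1, 3 and 4 was left out (limma adjusted p 0.0544 to 0.102), nor without the number 1 samples of CD151KO and wild type together (0.106) or with no filter on low signal (0.0606). In CD9KO it no longer passed without CD9KO sample 3 or 5 or wild type sample 1 or 3 (limma adjusted p 0.0527 to 0.0619), nor without the number 1 samples of CD151KO and wild type (0.0579). The probe set that represents Mcm5, 1436808_x_at, is of the kind marked x, in which some probes may also match other transcripts. A second Mcm5 probe set, 1415945_at, lay below the filter and was not tested, with 45.8 to 53.9 in CD151KO, 40.1 to 55.6 in CD9KO and 49.5 to 62.0 in wild type samples, so that its groups overlapped. Its means were 48.8, 48.4 and 56.3 in CD151KO, CD9KO and wild type samples. The last, 1459658_at, read 15.5 to 17.9, 15.3 to 17.9 and 14.5 to 17.4 in the same order. The mean of the probe sets takes in both of these dim ones.

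MCM4, MCM6 and the remaining MCM subunits form the same ring, yet their genes gave no call. Mcm4 read 463, 464, 452, 466 and 470.0 in CD151KO, 473, 464, 497, 504 and 518 in CD9KO, and 500.1, 519.9, 506 and 502 in wild type samples. All CD151KO samples lay below all wild type samples, while CD9KO overlapped both. Its log2 difference was -0.13 in CD151KO against wild type (SE 0.04, limma adjusted p = 0.171) and -0.04 in CD9KO against wild type (adjusted p = 0.465). On a second Mcm4 probe set, 1436708_x_at, the groups overlapped, with 361 to 427 in CD151KO, 371 to 554 in CD9KO and 317 to 470 in wild type samples. Its log2 differences against wild type were -0.07 in CD151KO and 0.12 in CD9KO (limma adjusted p 0.874 and 0.527 over 22951 probe sets). On the probe sets that stand for the genes, 2 of 31 had no overlap between CD151KO and wild type. They were Mcm4 and Mcm5, or 6.45%, where 4.54% of all genes did not overlap.

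Mcm6 varied among the CD151KO samples more than elsewhere. It read 402, 278, 367, 418 and 289.7 in CD151KO, 406, 375, 413, 487 and 466 in CD9KO, and 420.4, 422, 419.8 and 389 in wild type samples. CD151KO samples 2 and 5 were the low ones, and the groups overlapped. The log2 difference was -0.24 in CD151KO against wild type (SE 0.11, limma adjusted p = 0.411), 0.05 in CD9KO against wild type (adjusted p = 0.801) and -0.29 in CD151KO against CD9KO (SE 0.10, adjusted p = 0.0811). A second Mcm6 probe set, 1438852_x_at, had 160.5, 121, 154, 202 and 107 in the CD151KO samples, with samples 2 and 5 again lowest.

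Of the other licensing genes, Mcm2, Mcm3 and Mcm7 (helicase subunits), Cdt1 (which brings the helicase to origins) and Gins2 (part of the GINS complex that activates it) had log2 differences of -0.12 to -0.01 in CD151KO against wild type and -0.11 to 0.08 in CD9KO against wild type, and none passed. Mcm3 had a further probe set, 1420028_s_at, that was lower in CD151KO (mean 157) than in CD9KO (mean 186; log2 -0.22, SE 0.06, limma adjusted p = 0.0349 over 22951 probe sets), while the probe set that represents the gene gave -0.08. Cdc6, whose product loads the helicase, lay below the filter and was not tested. It read 35.9, 50.5, 37.3, 48.3 and 54.2 in CD151KO, 53.1, 52.2, 48.9, 63.4 and 63.9 in CD9KO, and 52.9, 51.2, 51.3 and 52.1 in wild type samples. Just above the filter were Gins2, Birc5 and Ccne2, with means over all samples of 56.9, 58.1 and 59.1, and just below it were Cdc6 (51.1), Aurka (47.6) and Aurkb (26.9).

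**Figure D2:**
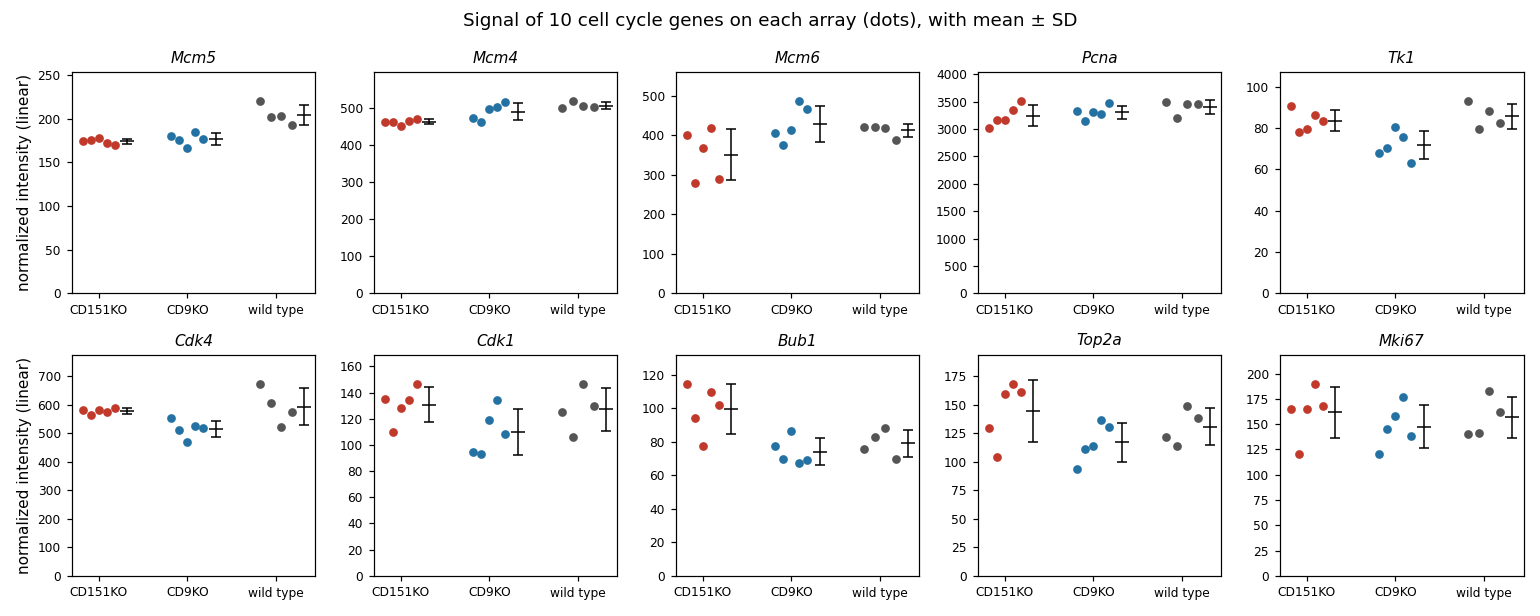
Normalized signal (linear scale, from 0) of 10 genes on each array, with the mean ± SD of each group to the right of its points, for CD151KO (n = 5), CD9KO (n = 5) and wild type (n = 4). Mcm5 is the gene whose knockout samples (167 to 185) all lay below the wild type samples (192 to 220.0), and for most others the groups overlapped.

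At the replication fork, PCNA is the sliding clamp that holds DNA polymerases on their template. Pcna read 3024, 3162, 3163, 3346 and 3513 in CD151KO, 3329, 3141, 3306, 3282 and 3471 in CD9KO, and 3499.6, 3205, 3451 and 3460.1 in wild type samples. The groups overlapped, with log2 differences of -0.07 in CD151KO against wild type (SE 0.04, limma adjusted p = 0.589) and -0.04 in CD9KO against wild type (adjusted p = 0.571). The ribonucleotide reductase subunit genes Rrm1 and Rrm2 had log2 differences of -0.08 to -0.01 against wild type in both knockouts, and neither passed.

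Tk1 encodes the cytosolic thymidine kinase, made in S phase. It read 90.4, 77.9, 79.5, 86.0 and 83.4 in CD151KO, 68.1, 70.2, 80.7, 75.8 and 63.1 in CD9KO, and 93.0, 79.3, 88.2 and 82.3 in wild type samples. CD9KO sample 3 was the 1 CD9KO sample inside the range of the other groups. The log2 difference of CD9KO against wild type was -0.22 (SE 0.06, limma adjusted p = 0.0546), which missed the threshold narrowly, and with every probe set tested as a feature of its own it passed (adjusted p = 0.0499). Between CD151KO and CD9KO it was 0.19 (SE 0.06, limma adjusted p = 0.0582).

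The D cyclins sense growth signals and open the cycle, and cyclin D1 had the smallest adjusted p among these genes, but its 3 probe sets went in opposite directions. The probe set that represents Ccnd1, 1417420_at, read 2374, 2005, 2439, 2492 and 2494 in CD151KO, 2820.1, 2740.1, 2993, 3043 and 2853 in CD9KO, and 2476, 2592, 2470.2 and 2759 in wild type samples. All CD151KO samples lay below all CD9KO samples, and the wild type overlapped both. Ccnd1 was 1.23-fold lower in CD151KO than in CD9KO on it (log2 -0.29, SE 0.06, limma adjusted p = 0.0064), with log2 differences of -0.13 in CD151KO against wild type (adjusted p = 0.446) and 0.17 in CD9KO against wild type (adjusted p = 0.098).

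The second Ccnd1 probe set, 1448698_at, read 1889, 1603, 2055, 2013 and 2046 in CD151KO, 2508, 2479, 2469, 2677 and 2496 in CD9KO, and 2656, 2207, 2009 and 2478 in wild type samples. It was likewise lower in CD151KO than in CD9KO with no overlap (log2 -0.40, SE 0.07, limma adjusted p = 0.00652 over 22951 probe sets). The third Ccnd1 probe set, 1417419_at, read 605, 448, 529, 539 and 562 in CD151KO, 321, 294, 299.8, 278 and 268 in CD9KO, and 359, 310.2, 289 and 336 in wild type samples. Every CD151KO sample on it lay above every sample of the other groups. On this probe set CD151KO was 1.62-fold higher than wild type (log2 0.70, SE 0.08, limma adjusted p = 0.000548) and 1.79-fold higher than CD9KO (log2 0.84, SE 0.08, limma adjusted p = 2.21e-05).

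No direction can therefore be given for Ccnd1 as a gene. With the mean log2 signal of its 3 probe sets the difference was 0.0981 in CD151KO against wild type (limma adjusted p = 0.616) and 0.0494 in CD151KO against CD9KO (adjusted p = 0.639). With every probe set tested as its own feature, 2 of the 62 probe sets of these genes passed in CD151KO against wild type, 2 in CD9KO against wild type and 5 in CD151KO against CD9KO, where 0.627%, 6.78% and 7.7% of all probe sets passed. The calls of the 3 single probe sets between the knockouts held in all 25 other settings tried, each of the 14 left-out samples included, and so did the call of 1417419_at against wild type. Which part of the transcript each probe set reads was not analysed here. Ccnd1 lies on chromosome 7, on which Cd151 also lies, with 66 protein-coding genes between them (GRCm38.p6 gene order, 2030 on the chromosome). Mki67, Plk1, Rrm1 and Ccne1 lie on it too, with 97, 275, 645 and 1204 such genes between them and Cd151. Whether the position of Ccnd1 bears on its probe sets was not tested.

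**Figure D3:**
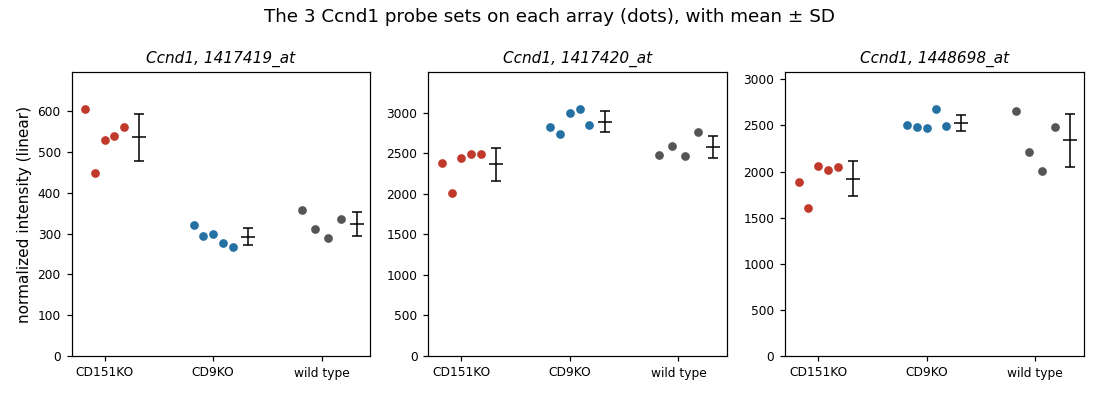
Normalized signal (linear scale, from 0) of the 3 Ccnd1 probe sets on each array, with the mean ± SD of each group, for CD151KO (n = 5), CD9KO (n = 5) and wild type (n = 4). On 1417419_at the CD151KO samples (448 to 605) lie above all others, whereas on 1417420_at and 1448698_at they lie below all CD9KO samples.

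CDK4 is the main kinase partner of the D cyclins. Cdk4 read 581, 563, 581, 573 and 588 in CD151KO, 551, 509.6, 470.0, 524 and 517 in CD9KO, and 674, 604, 519.9 and 573 in wild type samples. All CD151KO samples lay above all CD9KO samples, and the wild type samples spread across both. The log2 difference was 0.16 in CD151KO against CD9KO (SE 0.06, limma adjusted p = 0.0815) and -0.20 in CD9KO against wild type (SE 0.06, adjusted p = 0.0671), so it passed in neither. On all 3 Cdk4 probe sets the CD151KO samples lay above the CD9KO samples without overlap (log2 0.10, 0.13 and 0.16, limma adjusted p 0.199, 0.063 and 0.0912). All 3 were also lower in CD9KO than in wild type (log2 -0.13, -0.13 and -0.20, limma adjusted p 0.0979, 0.0712 and 0.063). On 1 of them, 1422440_at, CD9KO (322 to 350) and wild type samples (358 to 385) did not overlap. With the mean of its probe sets Cdk4 passed in CD9KO against wild type. Of the 31 genes 2, Ccnd1 and Cdk4, did not overlap between the knockouts, against 10.6% of all genes, and in CD9KO against wild type 1 did not, Mcm5, against 11.8% of all genes.

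Ccnd2, for cyclin D2, read 1937, 2052, 2156, 2235 and 2236 in CD151KO, 2029, 1859, 2006, 2007 and 1986 in CD9KO, and 1903, 2159, 1986 and 2254 in wild type samples. Its groups overlapped, and it did not pass in any comparison (log2 0.03, -0.07 and 0.10 in CD151KO against wild type, CD9KO against wild type and CD151KO against CD9KO, limma adjusted p 0.874, 0.447 and 0.21). Ccnd2 and Foxm1 lie on the chromosome of Cd9, with 14 and 23 protein-coding genes between. The genes of cyclin D3 (Ccnd3) and of the kinase CDK6 (Cdk6) had log2 differences of 0.08 and -0.05 in CD151KO against wild type and 0.15 and -0.03 in CD9KO against wild type. A further Ccnd3 probe set, 1438805_at, read 364 to 423 in CD9KO and 219.7 to 354 in wild type samples, with no overlap (log2 0.37, SE 0.18, limma adjusted p = 0.216).

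None of the genes of G1 to S control passed. Ccne1 and Ccne2 encode the E cyclins, Cdk2 their kinase and E2f1 a factor that drives replication genes. Ccne1, Cdk2 and E2f1 had log2 differences of -0.08 to 0.06 in the 3 comparisons. Ccne2 lay close to the filter and had the widest residual spread of the 31 genes (SD 0.23 on the log2 scale, where the median of all genes tested was 0.0882). It averaged 52.5 ± 10.8 in CD151KO (SD, n = 5), 66.5 ± 6.85 in CD9KO (n = 5) and 58.2 ± 15.8 in wild type lungs (n = 4), with a log2 difference of -0.28 in CD151KO against CD9KO (SE 0.13, limma adjusted p = 0.172).

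The genes used between S phase and mitosis leaned 1 way in both comparisons that involve CD9KO, though Bub1 alone passed, between the knockouts. All 10 tested were below 0 in CD9KO against wild type (median log2 difference -0.089), and 9 of 10 were above 0 in CD151KO against CD9KO (median 0.12), whereas in CD151KO against wild type 6 of 10 were above 0 (median 0.015). Many of these genes rose and fell together from sample to sample, so the counts do not stand for independent genes. Not all did, and r between pairs of them ran from -0.591 to 0.882. Of the 31 genes 24 were below 0 in CD9KO against wild type and 14 in CD151KO against CD9KO, where 48.8% and 49.4% of all genes were.

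BUB1 is a kinase of the spindle checkpoint, which holds mitosis until chromosomes are attached. Bub1 read 115, 94.3, 77.2, 109.9 and 102 in CD151KO, 77.3, 69.8, 86.6, 67.5 and 69.0 in CD9KO, and 75.9, 82.7, 88.2 and 69.5 in wild type samples. CD151KO sample 3 lay within the range of the other groups, and the other 4 CD151KO samples above it. Bub1 was 1.28-fold higher in CD151KO than in CD9KO (log2 0.36, SE 0.09, limma adjusted p = 0.0216). It had a log2 difference of 0.28 in CD151KO against wild type (SE 0.09, limma adjusted p = 0.249). The call between the knockouts was lost without CD151KO sample 1, CD9KO sample 4 or CD9KO sample 5 (limma adjusted p 0.0588, 0.052 and 0.0583) and without the number 1 samples of CD151KO and wild type (0.0501). The other Bub1 probe set was below the filter, with means of 11.3, 10.9 and 10.5 in CD151KO, CD9KO and wild type lungs.

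CDK1 is the kinase that starts mitosis, and topoisomerase II alpha, the product of Top2a, untangles the copied chromosomes. Cdk1 read 135, 109.8, 128, 135 and 146 in CD151KO, 94.8, 93.1, 119, 135 and 109 in CD9KO, and 125, 106, 147 and 129.8 in wild type samples. Its log2 difference was 0.23 in CD151KO against CD9KO (SE 0.10, limma adjusted p = 0.145), with overlap. Top2a read 129, 104, 159, 168 and 161 in CD151KO, 93.7, 111, 114, 137 and 130.0 in CD9KO, and 122, 114, 149 and 138 in wild type samples. CD151KO sample 2 and CD9KO sample 1 were lowest in their groups, and the log2 difference of CD151KO against CD9KO was 0.26 (SE 0.12, limma adjusted p = 0.164).

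Mki67 encodes Ki-67, the usual marker of cycling cells. It read 165, 120.0, 165, 190.2 and 168 in CD151KO, 120.5, 145, 158, 177 and 138 in CD9KO, and 140.4, 141, 183 and 162 in wild type samples. The groups overlapped. The log2 difference was 0.03 in CD151KO against wild type (95% interval -0.21 to 0.28, limma adjusted p = 0.945), -0.08 in CD9KO against wild type (-0.33 to 0.17, adjusted p = 0.692) and 0.12 in CD151KO against CD9KO (-0.12 to 0.35, adjusted p = 0.535).

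The remaining genes of this group were those of cyclins A2 and B2 (Ccna2, Ccnb2), of the mitotic kinase PLK1 (Plk1), of CDC20, which activates the ubiquitin ligase that ends mitosis (Cdc20), of survivin (Birc5) and of the factor FOXM1 (Foxm1). Their log2 differences ran from -0.22 (Birc5, CD9KO against wild type) to 0.14 (Ccna2, CD151KO against CD9KO), and none passed. Ccna2 averaged 126 ± 15.2 in CD151KO (SD, n = 5), 112 ± 6.51 in CD9KO (n = 5) and 129 ± 10.1 in wild type lungs (n = 4), and its difference of -0.18 in CD9KO against wild type had a limma adjusted p of 0.154. The Aurora kinase genes were below the filter and untested. Aurka read 49.0, 51.4, 45.2, 44.0 and 52.3 in CD151KO, 42.2, 51.4, 45.6, 52.5 and 42.4 in CD9KO, and 45.5, 48.6, 46.5 and 49.3 in wild type samples. Aurkb read 25.8, 25.4, 28.4, 26.4 and 27.3 in CD151KO, 27.7, 26.2, 27.5, 24.1 and 24.5 in CD9KO, and 27.6, 27.1, 28.4 and 30.8 in wild type samples. Both overlapped between the groups.

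Within each genotype the samples differed in many of the same genes. The mean log2 signal of the 10 genes of S phase to mitosis was 6.97, 6.76, 6.98, 7.11 and 7.05 in CD151KO samples 1 to 5, 6.73, 6.83, 6.91, 6.93 and 6.84 in CD9KO samples 1 to 5, and 6.98, 6.82, 7.08 and 6.94 in wild type samples 1, 3, 4 and 5. CD151KO sample 2 and wild type sample 3 were each the lowest of their group in 7 of the 10 genes, and CD9KO sample 1 in 5 of 10. After each group's mean was taken out, Ccna2 and Ccnb2 correlated across the 14 samples with r = 0.882, Ccnb2 and Mki67 with r = 0.87, Top2a and Mki67 with r = 0.865 and the reductase gene Rrm2 with Mki67 with r = 0.853. The median r of the 45 pairs among the 10 genes was 0.396, 33 of the 45 were above 0 and the lowest was -0.591. In CD9KO sample 4, whose mean was the highest of its group, Bub1 (67.5) and Foxm1 (100.3) were at their lowest in that group. Among the 8 licensing genes the median of 28 pairs was 0.212. These correlations describe 14 arrays that share preparation and normalization, and they carry no test. The median residual SD of the 31 genes was 0.104, and the highest values after Ccne2 were those of Top2a (0.211), Birc5 (0.201) and Mki67 (0.196).

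**Figure D4:**
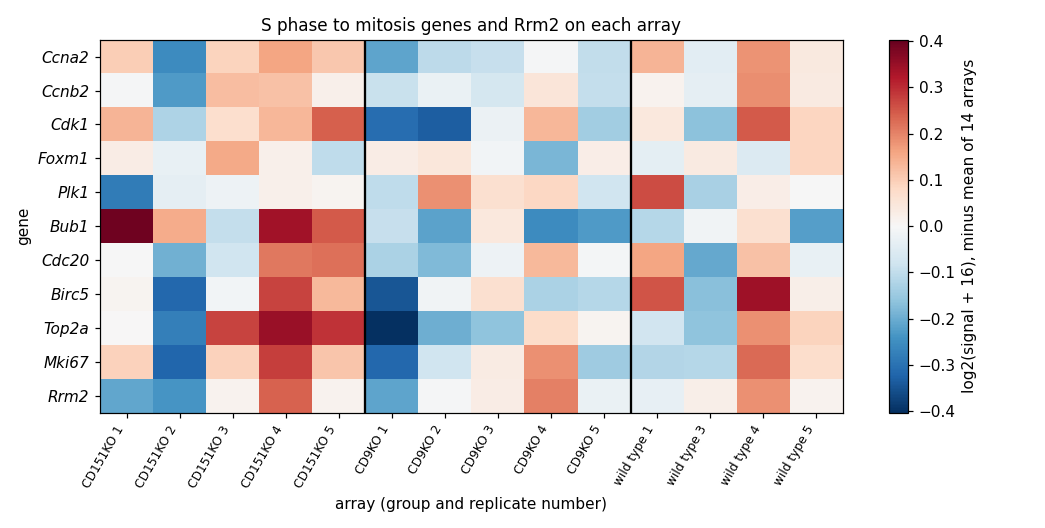
Log2 signal of the 10 genes of S phase to mitosis and of Rrm2 on each of the 14 arrays, minus the gene's mean over all arrays (colour scale from -0.4 to 0.4), with CD151KO, CD9KO and wild type samples in columns. Each row averages 0 by construction, so only differences along a row can be read. CD151KO sample 2 and CD9KO sample 1 are low in most genes, with means over the 10 genes of 6.76 and 6.73. By that mean the number 4 samples of CD151KO, CD9KO and wild type are each the highest of their group, at 7.11, 6.93 and 7.08.

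Promoters are shown for genes that varied together across samples and, beside them, for 2 licensing genes. Of the 34 genes 26 had an entry among RefSeq promoters of mouse assembly GRCm38.p6 (28 entries, from 250 bases before to 50 after the start). Searched on both strands were the core of the E2F site (TTCCCGC or TTGGCGC), the cell cycle homology region or CHR (TTTGAA or TTCGAA) and the CCAAT box (CCAAT). The E2F core can overlap a CCAAT box on the other strand. Below are the 200 bases before the start, 5′ to 3′ on the gene's strand, with matches in capitals, for 4 genes of S phase to mitosis that correlated across samples and 2 licensing genes, Mcm5 as the gene that passed and Mcm6 as the licensing gene with the widest residual spread. Positions are Ccnb2 chr9:70421555-70421754 (minus strand), Cdk1 chr10:69352913-69353112 (minus), Top2a chr11:99024190-99024389 (minus), Mki67 chr7:135716380-135716579 (minus), Mcm5 chr8:75109309-75109508 (plus) and Mcm6 chr1:128359706-128359905 (minus).
Ccnb2: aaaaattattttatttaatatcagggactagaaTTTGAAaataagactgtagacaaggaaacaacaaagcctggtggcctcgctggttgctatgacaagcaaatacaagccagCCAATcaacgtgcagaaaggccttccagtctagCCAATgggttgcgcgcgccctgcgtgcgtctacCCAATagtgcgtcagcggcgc
Cdk1: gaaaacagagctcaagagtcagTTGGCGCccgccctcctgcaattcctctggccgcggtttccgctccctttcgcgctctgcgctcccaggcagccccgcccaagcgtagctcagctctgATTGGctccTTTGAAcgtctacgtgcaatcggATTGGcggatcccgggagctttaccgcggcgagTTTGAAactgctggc
Top2a: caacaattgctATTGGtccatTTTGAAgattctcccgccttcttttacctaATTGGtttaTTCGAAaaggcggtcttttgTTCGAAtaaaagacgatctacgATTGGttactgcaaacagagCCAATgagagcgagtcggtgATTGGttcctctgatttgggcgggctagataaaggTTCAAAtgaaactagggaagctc
Mki67: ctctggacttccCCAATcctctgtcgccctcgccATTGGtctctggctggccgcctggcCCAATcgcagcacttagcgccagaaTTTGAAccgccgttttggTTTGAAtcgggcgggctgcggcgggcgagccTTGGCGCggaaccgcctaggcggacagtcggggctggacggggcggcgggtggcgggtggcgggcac
Mcm5: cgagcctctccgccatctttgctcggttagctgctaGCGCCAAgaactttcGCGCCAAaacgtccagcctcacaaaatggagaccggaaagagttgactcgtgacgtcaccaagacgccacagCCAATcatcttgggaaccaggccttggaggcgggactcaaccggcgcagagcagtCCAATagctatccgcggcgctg
Mcm6: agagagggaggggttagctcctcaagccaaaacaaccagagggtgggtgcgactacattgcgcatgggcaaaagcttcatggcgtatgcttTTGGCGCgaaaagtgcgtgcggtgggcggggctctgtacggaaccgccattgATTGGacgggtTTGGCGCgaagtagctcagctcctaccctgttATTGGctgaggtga

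The printed stretches of Ccnb2, Cdk1, Top2a and Mki67 hold 1, 2, 4 and 2 CHR matches and 3, 2, 5 and 3 CCAAT matches. Those of Mcm5 and Mcm6 hold no CHR match and 2 E2F core matches each. Over the whole 300-base entries, 8 of 9 promoters of the S phase to mitosis genes held a CHR match (88.9%) and 2 of 8 licensing promoters did (25.0%), where 19.2% of all 32851 promoters do. An E2F core was found in 7 of 8 licensing promoters (87.5%) and 2 of 9 promoters of S phase to mitosis genes (22.2%), where 6.81% of all promoters have 1. A CCAAT box was found in 19 of the 28 entries (67.9%), where 37.4% of all promoters have 1. A match is only a run of letters, and binding was not measured.

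Other cell cycle genes gave a like picture against wild type and more calls between the knockouts. Of 147 further genes in 5 lists 114 were tested. None of the 114 passed in CD151KO against wild type (limma), where 0.778% of all genes did. At an unadjusted p under 0.05 there were 9 of the 114, where all genes gave 11.1%. In CD9KO against wild type 3 passed (2.63%, all genes 5.51%), all higher, and in CD151KO against CD9KO 5 were higher and 8 lower (11.4%, all genes 10.1%).

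Of the 33 other mitotic genes tested, 3 were higher in CD151KO than in CD9KO and 0 were lower, where 5.99% of all genes were higher and 4.12% lower. The kinesin gene Kif23 and the spindle midzone gene Prc1, both needed for the final split of a dividing cell, and the condensin gene Ncaph had log2 differences of 0.21, 0.29 and 0.26 (limma adjusted p 0.0207, 0.0137 and 0.0276). Kif23 read 101 to 111 in CD151KO and 80.2 to 92.8 in CD9KO samples, Prc1 80.0 to 99.0 and 64.1 to 83.1, and Ncaph 174 to 229 and 164 to 177 in the same order. Kif23 did not overlap between the knockouts, and the other pair did. Kif23 lost its call without CD151KO sample 1 (0.0518), Ncaph without CD151KO sample 1, 3 or 4 or CD9KO sample 2 or 4 (0.0504 to 0.0709), and Prc1 with none of the 14, but with the mean of its probe sets (0.101).

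Of 15 inhibitors and pocket proteins tested, 1 was higher and 3 were lower in CD151KO than in CD9KO, beside the same 5.99% and 4.12% of all genes. Wee1, whose kinase holds CDK1 inactive, averaged 613 ± 125 in CD151KO (SD, n = 5), 896 ± 87.1 in CD9KO (n = 5) and 806 ± 119 in wild type lungs (n = 4). Its range was 474 to 772 in CD151KO and 809 to 1041 in CD9KO, so the knockouts did not overlap, and it was 1.47-fold lower in CD151KO (log2 -0.55, SE 0.12, limma adjusted p = 0.0129). That call held in all 27 other settings. Btg1, an antiproliferative gene, was higher (log2 0.19, limma adjusted p = 0.0184) with 4323 to 4928 in CD151KO and 3793 to 4169 in CD9KO samples, and lost its call with the mean of its probe sets (0.116).

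The retinoblastoma family holds E2F factors in check. In CD9KO against wild type Rb1 was higher (808 ± 70.8 and 647 ± 40.5, SD, n = 5 and 4; log2 0.31, limma adjusted p = 0.0272) and so was Rbl2 (501 ± 25.2 and 431 ± 19.1; log2 0.21, limma adjusted p = 0.0305), both without overlap. Rbl2 was also lower in CD151KO than in CD9KO (log2 -0.18, limma adjusted p = 0.0242). Rb1 lost its call without wild type sample 3, 4 or 5 or CD9KO sample 3, 4 or 5 (0.0511 to 0.0695). Rbl2 lost it against wild type without wild type sample 3 or CD9KO sample 3 or 5 (0.0507 to 0.0887), and between the knockouts without CD151KO sample 3 or CD9KO sample 5 (0.0558 and 0.0675) and with the mean of its probe sets (0.07). Cdkn1b, which encodes the inhibitor p27, was lower in CD151KO than in CD9KO on its main probe set (log2 -0.18, limma adjusted p = 0.0272), but 0.0163 (adjusted p = 0.905) with the mean of its probe sets, and it also lost its call without CD151KO sample 2 or 3 or CD9KO sample 3 or 5 (0.0575 to 0.0751).

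The licensing kinase gene Cdc7 (log2 -0.25, limma adjusted p = 0.0218) and the MCM-binding gene Mcmbp (log2 -0.14, limma adjusted p = 0.0274) were lower in CD151KO than in CD9KO, as were the topoisomerase gene Top1 (log2 -0.18, limma adjusted p = 0.0409), the E2F partner gene Tfdp2 (log2 -0.18, limma adjusted p = 0.0249) and the DREAM and MuvB subunit gene Lin9 (log2 -0.43, limma adjusted p = 0.0221). The checkpoint kinase gene Chek2 was higher (log2 0.21, limma adjusted p = 0.0416). Cdc25b, for a phosphatase that activates CDK1, was higher in CD9KO than in wild type (log2 0.21, limma adjusted p = 0.0499). Each of these calls was lost when some single samples were left out, for Top1, Chek2 and Cdc25b also samples of the group not compared. Cdc7 lost its call without CD9KO sample 5 (0.0598). Mcmbp lost it without CD151KO sample 2 or 4 or CD9KO sample 1 or 5, Tfdp2 without CD151KO sample 1 or 3 or CD9KO sample 4 or 5, and Lin9 without CD151KO sample 2 or 3 or CD9KO sample 5 (0.0529 to 0.072, 0.0601 to 0.0682 and 0.0544 to 0.0563 in that order). Top1, Chek2 and Cdc25b lost theirs in 9, 10 and 11 of the 14 leave-outs (0.0511 to 0.103, 0.0519 to 0.102 and 0.0546 to 0.13). With the mean of their probe sets Mcmbp and Tfdp2 had an adjusted p of 0.155 and 0.0715. Of the 13 other settings, 2 ended the call of Tfdp2, 2 that of Top1, 2 that of Chek2 and 7 that of Cdc25b.

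Neutrophil markers differed between CD151KO and CD9KO. The summed signal of 8 neutrophil markers was 3670 to 10950 in CD151KO, 1895 to 2914 in CD9KO and 2484 to 5688 in wild type samples, and 4 of the 5 tested (S100a8, S100a9, Cxcr2 and Csf3r) were higher in CD151KO than in CD9KO (limma). That of 11 B and plasma cell markers was 6109 to 9893 in CD151KO, 3562 to 6283 in CD9KO and 2498 to 7117 in wild type samples, and none of the 9 tested passed in any comparison, with 1 at an unadjusted p under 0.05 in CD151KO against CD9KO and none in the others. The 8 T and NK cell markers summed to 1831 to 3027, 1398 to 2592 and 1977 to 2385 in CD151KO, CD9KO and wild type samples, and none of the 7 tested passed. The 6 germinal centre B cell markers, of a population that divides, summed to 1730 to 2261 in CD151KO, 2124 to 2631 in CD9KO and 1639 to 2119 in wild type samples, and 1 of the 4 tested passed once, Mef2b, lower in CD9KO than in wild type (limma). The 8 macrophage markers summed to 17430 to 23627, 17319 to 19964 and 15411 to 17981 in the same order, and 1 passed once, Fabp5, higher in CD151KO than in CD9KO (limma). The 6 smooth muscle markers summed to 7685 to 8949 in CD151KO, 8309 to 9813 in CD9KO and 6783 to 7596 in wild type samples, so that both knockouts lay above wild type where Mcm5 lay below it. Of these 6, 1 (Actg2) was higher in CD151KO and 4 (Myh11, Cnn1, Actg2 and Tagln) were higher in CD9KO than in wild type (limma). The 8 cardiac muscle markers summed to 6557 to 11484, 9119 to 12817 and 7182 to 8564 in the same order. Thymus markers, 4 of 7 below the filter, summed to 316 to 418, 334 to 402 and 354 to 380 in the same order. The 6 club cell markers summed to 80852 to 83763, 73853 to 79165 and 78010 to 79110, again in that order. Of these, 2 (Scgb3a1 and Cldn10) were higher in CD151KO than in CD9KO (limma). Lists of erythroid cells, platelets, endothelium, fibroblasts, alveolar type 1, ciliated and mesothelial cells were also summed and are not given here. Single markers of some of those passed too. No marker was at 0 in any list, but the lowest signal of any probe set was 4.78, so none could be. Of the 6 germinal centre markers 2 were below the filter, and the dimmest averaged 6.73 in CD151KO. The part of these cells in Mcm5 against wild type, or in Bub1, Kif23, Prc1, Ncaph, Btg1 or any other difference between CD151KO and CD9KO was not tested.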

How the data were processed

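The authors deposited a linear, already normalized intensity for each probe set on each array, per the labels. The submitters' processing notes list Affymetrix Expression Console and MAS5 without versions, and the steps between scan and table are not given in the sources used here. Low signals depend on those steps. Groups and sample numbers were taken from the sample titles.

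Gene names came from the platform annotation of the probe sets (34945 with 1 symbol, 932 with several, 9211 with none, 64 controls left out), and 34741 matched a RefSeq gene table by gene ID, with 0 symbols changed. Signals were transformed as log2(signal + 16). The brightest probe set on average stood for each gene, and genes below the 40th percentile of mean level (5208) were left out. With limma 3.58.1 (lmFit, then eBayes with trend; R 4.3.3) 3 group means were fitted over 14 arrays, leaving 11 residual degrees of freedom. Contrasts were two-sided and adjusted by Benjamini-Hochberg over 12985 genes at 0.05. Probe set values come from the same fit over 22951 probe sets. The code was tested on simulated data. Precision is limited by the number of arrays.

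The 35 genes, the gene lists and the tests were chosen with earlier results of these data known. Values in every sample are given for genes that passed, the 4 with the smallest unadjusted p per comparison, Mki67, Top2a, Pcna and Cdk1, and the 3 highest and 3 lowest in signal. Of the other lists, genes that passed are named. Marker lists were summed over each gene's representative probe set. Alternatives were quantile normalization, median centring, pseudocounts of 1 and 64, a 60th percentile filter or none, averaging a gene's probe sets, testing every probe set, fitting just the compared groups, array weights, no trend, the replicate number as a block, and leaving out samples. The probe sets of Ccnd1 under these settings were added after seeing the data.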

Additional observations from a re-analysis of the deposited data

Results flagged for a closer look

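In 9 of 120 groups tested (7.5%), 1 sample lay apart from the rest of its group by more than Dixon's 95% critical value. Chance gives this in about 5% of groups. The 120 take in the signal of each gene in each genotype and also mean levels over sets of these genes. All 9 were signals of single genes, so the share among single genes is higher than 7.5%. Wild type sample 1 was high for Mcm2 (502, others 406 to 416) and for Cdk6 (913, others 793 to 807). Wild type sample 5 was low for Mcm6 (389, others 419.8 to 422), and wild type sample 3 was low for Pcna (3205, others 3451 to 3499.6). CD151KO sample 2 was low for Ccnd1 (2005, others 2374 to 2494) and for Ccna2 (99.2, others 130.4 to 137). CD151KO sample 1 was low for Plk1 (49.5, others 61.5 to 64.6). CD9KO sample 2 was low for Ccnd2 (1859, others 1986 to 2029), and CD9KO sample 4 was low for Foxm1 (100.3, others 115 to 120.4). Of these genes Ccnd1 is the 1 with a call, which held without CD151KO sample 2.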

How the results depend on the processing

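Across the settings tried, the median difference of the 31 genes ran from -0.0704 to -0.0105 for CD151KO against wild type. For CD9KO against wild type it ran from -0.059 to -0.0323. For CD151KO against CD9KO it ran from -0.0228 to 0.0355, so its sign was not the same in every setting. No median moved by as much as 0.127, the SD within groups of the samples' median log2 signal over these genes. That SD is larger than the medians themselves, so staying within it says little. The counts of genes that passed did move, and the cause was not tested. For CD151KO against wild type (1 gene) the count was 0 with no filter, with averaged probe sets, with only the compared groups and without the number 1 samples, and 2 with every probe set. For CD9KO against wild type (1 gene) it was 2 with averaged probe sets (Cdk4 and Tk1, without Mcm5), every probe set or array weights, and 0 with only the compared groups or without the number 1 samples. For CD151KO against CD9KO (2 genes) it was 1 with the 60th percentile filter, with averaged probe sets (Tk1) or without the number 1 samples, and 4 with array weights. Leaving out single samples gave 0 to 1, 0 to 2 and 1 to 4 genes. Over all genes the counts were 101, 715 and 1313. Outside 1.5 times these were 39 (only the compared groups), 335 (array weights) and 45 (without the number 1 samples) for CD151KO against wild type, and 1591 (replicate block), 1555 (every probe set), 1090 (array weights) and 405 (without the number 1 samples) for CD9KO against wild type, with 24 to 98, 155 to 867 and 686 to 1941 for single samples left out. Ccnd1 turned to 0.0981 and 0.0494 and Cdkn1b to 0.0163 with averaged probe sets, since their probe sets disagree. Same-numbered samples were not treated as pairs, since the labels do not say what a number marks and not every pair correlated above 0.1. For CD151KO and wild type the 4 same-numbered pairs correlated at -0.13 to 0.592 (mean 0.294, others -0.0628), which is a hint from the data, though not every sample correlated best with its own number. With the replicate number as a block 0, 2 and 5 genes passed, and the call of Mcm5 in CD151KO ended (limma adjusted p = 0.0658). Signals near the filter limit what can be seen for Cdc6, Aurka, Aurkb, Ccne2 and Gins2.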
